A study of Mus musculus with 36 samples.

Results

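Dendritic cells without any RNA stimulus were compared between mice labelled LGP2-/- (KO) and wild-type (WT) mice. The comparison used every mock library of the series, which is 18 of 36 libraries. It comprised 9 KO and 9 WT libraries, with 3 of each genotype at 1, 3 and 6 h, and time was kept as a block. Of 24127 genes in the deposited table, the 11755 whose normalized counts averaged 10 or more over these 18 libraries were tested. The cells were bone marrow dendritic cells (BM-DCs) of strain C57BL/6, raised in GM-CSF and enriched on CD11c, an integrin of dendritic cells. The design text gives the WT mice as C57BL/6J. The LGP2-/- cells, also written Dhx58-/-, carry the knockout in every cell, and no Cre or transgene is named. Mock cells received 0 ng of PAMP RNA and are described as mock treated and also as left untreated. The other 18 libraries received 20 ng of PAMP RNA, a RIG-I agonist from hepatitis C virus, and of these the 3 KO and 3 WT libraries at 1 h are compared below, with the spread estimated over all 18. Cells of a condition were plated in triplicate, and no label says how many mice or marrow cultures each genotype came from. The p-values therefore measure the spread between these libraries, and genotype, genetic background and marrow culture cannot be told apart.

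LGP2 is an RNA helicase of the RIG-I-like receptor family. RIG-I and MDA5 bind viral RNA and signal through their CARD domains to MAVS, which leads to type I interferon, while LGP2 lacks these domains and is known as a regulator of both. Its gene, Dhx58, is itself induced by interferon. BM-DC cultures hold immature cells, cells that mature without a stimulus, and macrophage-like cells. Maturation is marked by the lymph node homing receptor CCR7, by costimulatory ligands and by MHC class II molecules on the surface.

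The mock libraries held 7399214 to 14255730 reads in genes, with medians of 8016304 in WT and 8554829 in KO libraries, and 14664 to 15417 genes with a read. On the log2 scale, libraries that share a group correlated at 0.991 or more. The first principal component held 59.9% of the variance and ordered the libraries by time. The third held 8.55%, and all 9 KO libraries lay below 0 on it and all 9 WT libraries above. Xist, expressed from the inactive X chromosome of females, stayed under 1 normalized count in every mock library, and the Y-linked gene Eif2s3y was at 282 to 364. Differences below are KO minus WT in log2 units of normalized count + 1 unless another scale is named. A gene is called at an adjusted p under 0.05, from limma with Benjamini-Hochberg adjustment over the 11755 genes.

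Of the genes tested 2499 (21.3%) were called, 1200 (10.2%) higher and 1299 (11.1%) lower in KO cells. These shares are the background for the counts of list members called over the 3 times below. Most differences were small. The median size of a called difference was 0.22, or 1.17-fold, against a median of 0.01 (signed) over all genes tested. At least 1.5-fold was reached by 233 called genes, of which 46 were higher and 187 lower in KO cells. At least 2-fold was reached by 27, of which 6 were higher and 21 lower. At 759 genes (6.46%) the 3 KO libraries lay on the same side of the 3 WT libraries at each of the 3 times, and all 759 were called. Both counts rest on the same values, so they are not separate evidence.

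**Figure D1:**
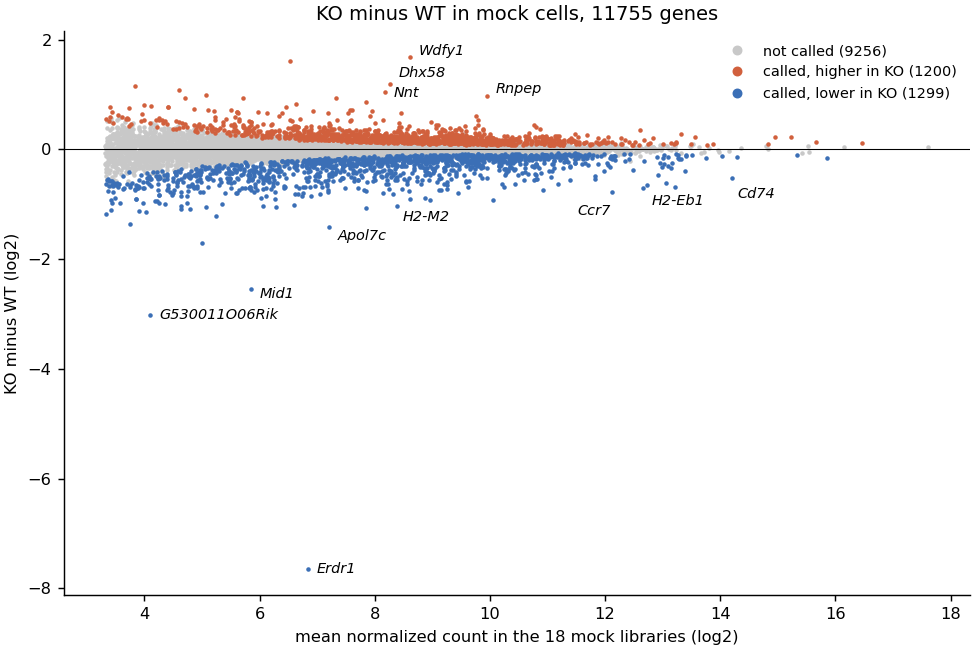
Each of 11755 genes by its mean normalized count in the 18 mock libraries (x axis, log2) and its KO minus WT difference with time as a block (y axis, log2); colours mark genes called higher (1200) and lower (1299) in KO cells. Erdr1, G530011O06Rik and Mid1 lie farthest below 0, and Wdfy1 farthest above among the labelled genes.

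Dhx58, the targeted gene, was higher and not lower in the libraries labelled KO, so its RNA level does not bear out that label. It lies on chromosome 11 from 100694884 to 100704271 (minus strand, GRCm38). At 1 h its normalized counts were 94.1, 103 and 83.6 in WT libraries and 119, 214 and 108 in KO libraries. At 3 h they were 115, 142 and 138 in WT against 521, 377 and 455 in KO libraries. At 6 h they were 362, 287 and 273 against 808, 725 and 634. The genotypes did not overlap at any time. The difference was 1.19 (SE 0.13, adjusted p = 2.99e-08, limma), and it varied with time, at 0.59, 1.76 and 1.23 (adjusted p = 0.0113 for the genotype by time test in limma). The counts sum all exons, so they cannot tell whether the targeted exons are covered, and they are no check on loss of the protein. In every sentence below, KO means the libraries labelled so.

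Kat2a, which encodes the histone acetyltransferase GCN5, lies next to Dhx58 with a gap of 0.475 kb, from 100704746 to 100712465 on the same strand. It had a lowest, median and highest count of 90.4, 145 and 153 in WT libraries and 166, 191 and 209 in KO libraries, without overlap. The difference was 0.53 (SE 0.07, adjusted p = 1.7e-06, limma) over the 3 times and 0.24, 0.47 and 0.89 at 1, 3 and 6 h (adjusted p = 0.0163 for genotype by time). In the PAMP RNA libraries at 1 h it was 0.11 (adjusted p = 0.709). Zfp385c, on the other side of Dhx58, was not called at 0.06 (adjusted p = 0.254). Within 0.5 Mb of Dhx58 10 of 25 genes tested were called (40.0%), 6 higher and 4 lower, and within 10 Mb 49 of 211 (24 higher and 25 lower, 23.2%), against 21.3% of all genes. Map3k14, which encodes the kinase NIK of noncanonical NF-kB signalling, had the smallest p within 5 Mb, at -0.60 (adjusted p = 3.83e-14).

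The lowest KO values relative to WT belonged to 3 neighbouring genes at the distal end of the X chromosome. Erdr1 had 2378 reads in the 9 WT libraries and 1 read in the 9 KO libraries. The ratio of the mean normalized counts was 2369-fold, with a 95% counting interval of 425 to 93616. Its WT libraries ranged from 143 to 389 normalized counts, and 8 of 9 KO libraries were at 0. Mid1 (169685199 to 170005736), a microtubule-associated ubiquitin ligase, had a lowest, median and highest count of 66.2, 102 and 125 in WT and 5.95, 14.7 and 28.4 in KO libraries, a difference of -2.54 (SE 0.15, adjusted p = 4.73e-14, limma). G530011O06Rik, a noncoding transcript (169975043 to 169978917) picked out after its values were seen, had 339 reads in WT and 35 in KO libraries. It lies within Mid1 on the opposite strand, and libraries that do not mark strand cannot separate the pair. The next genes inward were not in this pattern, with Hccs at 0.04 (adjusted p = 0.564) and Arhgap6 at 0.01 (adjusted p = 0.884). The PAMP RNA libraries at 1 h gave -8.55 for Erdr1, a fitted value that depends on the pseudocount, and -2.80 for Mid1.

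Among rises with at least 50 normalized counts and no overlap at any time, Wdfy1 led. It encodes an endosomal FYVE-domain protein known for a role in TLR3 and TLR4 signalling. Its lowest, median and highest counts were 139, 186 and 244 in WT and 535, 605 and 630 in KO libraries, so that every KO library held more than 2-fold the counts of every WT library. The difference was 1.69 (SE 0.06, adjusted p = 1.54e-18), and 1.42, 1.96 and 1.68 at 1, 3 and 6 h (adjusted p = 0.0193 for genotype by time). Nnt, the mitochondrial transhydrogenase and a gene with a known deletion in the C57BL/6J substrain, held 173 to 204 in WT libraries (median 191) and 363 to 436 in KO libraries (median 391). The difference was 1.04 (SE 0.04, adjusted p = 9.87e-17) and 1.08, 1.02 and 1.01 by time. Rnpep, an aminopeptidase, held 533, 596 and 825 in WT (lowest, median and highest) against 1114, 1272 and 1556 in KO libraries, a difference of 0.98 (SE 0.03, adjusted p = 1.54e-18). Other rises were Perp, a p53 target (0.94), the semaphorin receptor Plxnb2 (0.93), the haemoglobin scavenger receptor Cd163 (0.77), Ramp1, a subunit of the CGRP receptor (0.72), and the transcription factor Nfe2 (0.72). Gm14548 (1.61) and Lilra6 (0.83) belong to the paired immunoglobulin-like receptors, whose near-identical copies can share reads, and the pseudogene Tmem181b-ps (0.87) carries the same doubt.

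Among falls chosen the same way, Apol7c, an apolipoprotein L gene of dendritic cells, followed Erdr1 and Mid1. Its counts were 27.3 to 456 in WT (median 165) and 7.75 to 200 in KO libraries (median 72.3), and the ranges overlap only because its level changed with time. The difference was -1.42 (SE 0.09, adjusted p = 3.89e-13). Ramp3, a subunit of the adrenomedullin receptor, held 277 to 335 in WT and 119 to 193 in KO libraries, at -1.06 (SE 0.06, adjusted p = 1.18e-13). The MHC class I-like gene H2-M2 fell by 1.04, and the metalloprotease gene Adam19 by 0.92 (545 to 700 in WT and 268 to 409 in KO libraries). Stat4, a transducer of IL-12 signals, fell by 0.91. Dpysl5 (-1.05), Mpp7 (-1.03), Mab21l3 (-1.01), the chemokine Ppbp (-0.93) and Mmp25 (-0.90) completed the set. With Dhx58 these are 24 genes, and none of them lost its call or turned direction in any alternative run for the comparison over the 3 times. They were chosen for their calls, sizes and lack of overlap in these same libraries, so this stability is largely set by the choice.

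**Figure D2:**
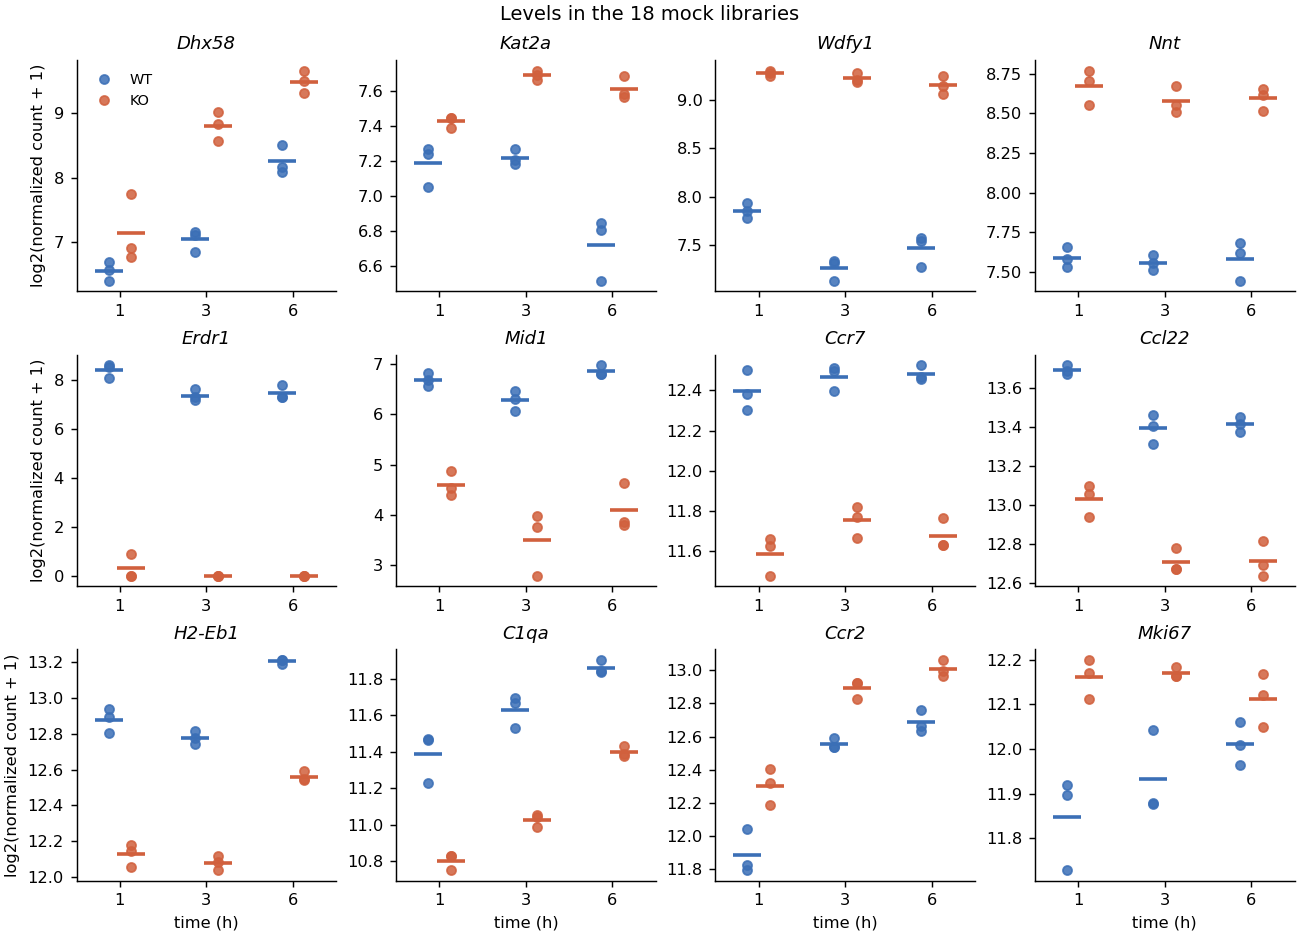
Each point is a mock library, placed by time (x axis, h) and log2(normalized count + 1) (y axis, a separate range for each gene), with short lines at the mean of 3 libraries. Dhx58, Kat2a, Wdfy1, Nnt and Ccr2 are higher in KO libraries (orange) at each time, and Erdr1, Mid1, Ccr7, Ccl22, H2-Eb1 and C1qa are lower; for Mki67 the genotypes overlap at 6 h.

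Genes of dendritic cell maturation were lower in KO cells almost throughout. Of 21 tested, 20 fell and 0 rose (11.1% of all genes fell), with a median of -0.52 against 0.01 over all genes. In 17 the KO libraries lay below the WT libraries at each of the 3 times (6.46% of all genes were apart in 1 direction throughout). Ccr7, the lymph node homing receptor, had counts of 5047, 5668 and 5896 in WT (lowest, median and highest) and 2853, 3232 and 3618 in KO libraries. Its difference was -0.78 (SE 0.03, adjusted p = 1.11e-16) and was alike at the 3 times, at -0.81, -0.72 and -0.81. Serpinb6b, a protease inhibitor, fell by 0.89 (534 to 687 in WT, 279 to 377 in KO libraries) and Cacnb3, a calcium channel subunit found in mature dendritic cells, by 0.63. Cd83, a surface marker of maturation added here after its values were seen, held 2526 to 3099 in WT and 1666 to 2062 in KO libraries, at -0.62 (adjusted p = 5.85e-13). The costimulatory ligands Cd40 (-0.52), Cd80 (-0.46) and Cd86 (-0.47), the inhibitory ligand Pdcd1lg2 (-0.73), the actin bundler Fscn1 (-0.74) and the receptor 4-1BB, Tnfrsf9 (-0.80), fell as well. Birc3, an apoptosis inhibitor, was the member not called, at -0.08. In the PAMP RNA libraries at 1 h 18 of the 21 were called lower and 0 higher (5.23% and 3.55% of all genes). In RNA from a bulk CD11c-enriched sample, fewer cells of a type and less RNA per cell cannot be told apart.

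The MHC class II genes went with them. Of 15 tested 11 were lower and 0 higher, with a median of -0.43, and their summed counts were 60709 to 74432 in WT and 43424 to 57962 in KO libraries, without overlap. The β chain gene H2-Eb1 held 6850 to 9494 in WT (median 7594) and 4201 to 6164 in KO libraries (median 4533), at -0.70 (SE 0.03, adjusted p = 1.03e-17). H2-Ab1 (-0.65), H2-Aa (-0.62) and the invariant chain Cd74 (-0.52; 19938 to 24689 in WT and 13306 to 17482 in KO libraries) fell too. So did the peptide exchange genes H2-DMb1 (-0.29) and H2-Oa (-0.48), and Ciita, the master activator of the class (-0.30). The promoter factors Rfx5 (0.10), Rfxap (0.11) and Rfxank (-0.00) and the protease Ctss (0.07) were not called. Of 24 MHC class I and antigen processing genes 10 were lower and 0 higher, with a median of -0.09. H2-Q7 (-0.55) and H2-Q6 (-0.51) led, and both have near-identical copies that can share reads. H2-T23 (-0.21) and the immunoproteasome subunit Psmb8 (-0.19) followed.

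Chemokines that mature dendritic cells make were among the genes lower in KO cells. Of 14 chemokines tested 10 were lower and 1, Ccl6, was higher (0.14), with a median of -0.50. Summed counts of the list overlapped, at 57238 to 106140 in WT and 54050 to 107820 in KO libraries. With PAMP RNA at 1 h 6 were lower and 2 higher (5.23% and 3.55% of all genes), with a median of -0.16. Ccl17 and Ccl22 are counted in the maturation list as well. Ccl22, a ligand of CCR4, held 10157, 11192 and 13454 in WT (lowest, median and highest) and 6379, 7044 and 8781 in KO libraries. Its difference was -0.68 (SE 0.03, adjusted p = 2.28e-16), with -0.66, -0.68 and -0.70 at the 3 times. Ccl5, which recruits T cells, differed by as much, at -0.68 (1372 to 1595 in WT and 848 to 1028 in KO libraries). Cxcl3, a neutrophil attractant, was at -0.74 and Ccl17, the other CCR4 ligand, at -0.49. Of 16 cytokine genes tested 6 were lower and 1 higher (37.5% and 6.25%, against 11.1% and 10.2% of all genes). The cytokine list shares Il12b with the maturation list. Il12b, the shared subunit of IL-12 and IL-23, was at -0.79 (SE 0.13, adjusted p = 3.91e-05) in mock cells and at -0.04 (adjusted p = 0.904) with PAMP RNA at 1 h. Il1rn (-0.31) and Csf1 (-0.30) fell and Tnfsf14 rose (0.53; call lost without the 1 h libraries, adjusted p = 0.0557, or the 6 h libraries, adjusted p = 0.128), while Tnf (-0.02) and Il1b (-0.05) were not called.

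Markers of the labelled cell type were present and mostly lower. Itgax, which encodes CD11c, held 2978 to 3441 in WT and 2638 to 3334 in KO libraries, at -0.10 (SE 0.03, adjusted p = 0.00703); the call was lost under quantile normalization (-0.06, adjusted p = 0.111) and without the 3 h (adjusted p = 0.125) or 6 h libraries (adjusted p = 0.151). Zbtb46, a transcription factor of conventional dendritic cells, was at -0.41 (240 to 371 in WT and 171 to 283 in KO libraries). Flt3, a growth factor receptor of the same lineage, lay under the minimum and was not tested, with 6.74 to 18.6 in WT and 0.737 to 7.93 in KO libraries. Csf2ra, the GM-CSF receptor, rose by 0.22 (adjusted p = 0.00269), a call lost without the 3 h libraries (adjusted p = 0.0528). Of 20 conventional dendritic cell genes tested, Ccr7 of the maturation list among them, 14 were lower and 2 higher, with a median of -0.28. They included the peptidase Dpp4 (-0.60), the integrin Itgae (-0.83), the cDC1 receptor Xcr1 (-0.47) and the factors Irf4 (-0.33) and Irf8 (-0.25).

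Genes of macrophages and monocytes moved both ways. Of 30 tested 10 were higher and 5 lower (33.3% and 16.7%, against 10.2% and 11.1% of all genes), with a median of 0.03. Their summed counts overlapped at 225820 to 333680 in WT and 258270 to 335690 in KO libraries. The scavenger receptors Marco and Cd163 rose, and Marco held 87.4, 120 and 237 in WT (lowest, median and highest) against 179, 191 and 305 in KO libraries. Its difference was 0.65 (SE 0.07, adjusted p = 1.55e-08), and 0.98, 0.66 and 0.33 by time (adjusted p = 0.00941 for genotype by time). Ccr2, the chemokine receptor of monocytes, rose by 0.36 (3546 to 6942 in WT and 4654 to 8556 in KO libraries). The mannose receptor Mrc1 (0.22) and the lipid chaperone Fabp4 (0.66) rose too. The complement genes C1qa (-0.55), C1qb (-0.26) and C1qc (-0.27) fell, and C1qa held 2401 to 3829 in WT and 1722 to 2756 in KO libraries. Csf1r, the receptor for M-CSF, was at 0.10 (adjusted p = 0.00606), and its call was lost without the 3 h (adjusted p = 0.108) or 6 h libraries (adjusted p = 0.15). Of 16 genes of alternative activation 9 were lower and 3 higher (56.2% and 18.8%, against 11.1% and 10.2% of all genes). Ccl17, Ccl22, Pdcd1lg2 and Socs2 of this list are also in the maturation list, so these falls are not separate results.

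Of the marker lists of other cell types, most members of several lay under the minimum, and some that passed were called (21.3% of all genes tested were). Ppbp, in the first list, held 503 to 2770 normalized counts in WT libraries and 298 to 1330 in KO libraries. Of 18 erythroid and megakaryocyte genes 5 passed the minimum, 4 of them lower and 0 higher, among them the platelet chemokines Ppbp and Pf4 (-0.58) and the carbonic anhydrase Car2 (-0.81). Their list summed to 3111 to 5850 in WT and 2205 to 3515 in KO libraries, with the haemoglobin genes and Klf1 under the minimum. Of 18 stromal genes 3 passed, 2 of them lower and 0 higher, with sums of 467 to 634 in WT and 345 to 406 in KO libraries and with the collagen genes Col1a1, Col1a2 and Col3a1 under the minimum. Of 18 T and NK cell genes with a row 4 passed, 2 lower (Il7r at -0.35 and Thy1 at -0.98) and 0 higher, with sums of 982 to 1205 against 842 to 908, while the CD3 genes were under the minimum. The plasmacytoid list had 3 lower and 1 higher of 8 (50% called) and the neutrophil list 2 lower and 1 higher of 11 (27.3%). The eosinophil list had 1 lower and 0 higher of 3 (33.3%), the mast cell list 0 lower and 1 higher of 3 (33.3%), and the B cell list 0 of 1 either way. The neutrophil share is near the 21.3% of all genes, and the eosinophil and mast cell shares rest on 1 call each. The sums overlapped between genotypes in these 5 lists and in the erythroid and megakaryocyte list. The neutrophil list was at 5553 to 7663 in WT and 5708 to 6876 in KO libraries and the eosinophil list at 2188 to 3230 and 1930 to 3044. The part of these cells in the differences above was not tested.

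**Figure D3:**
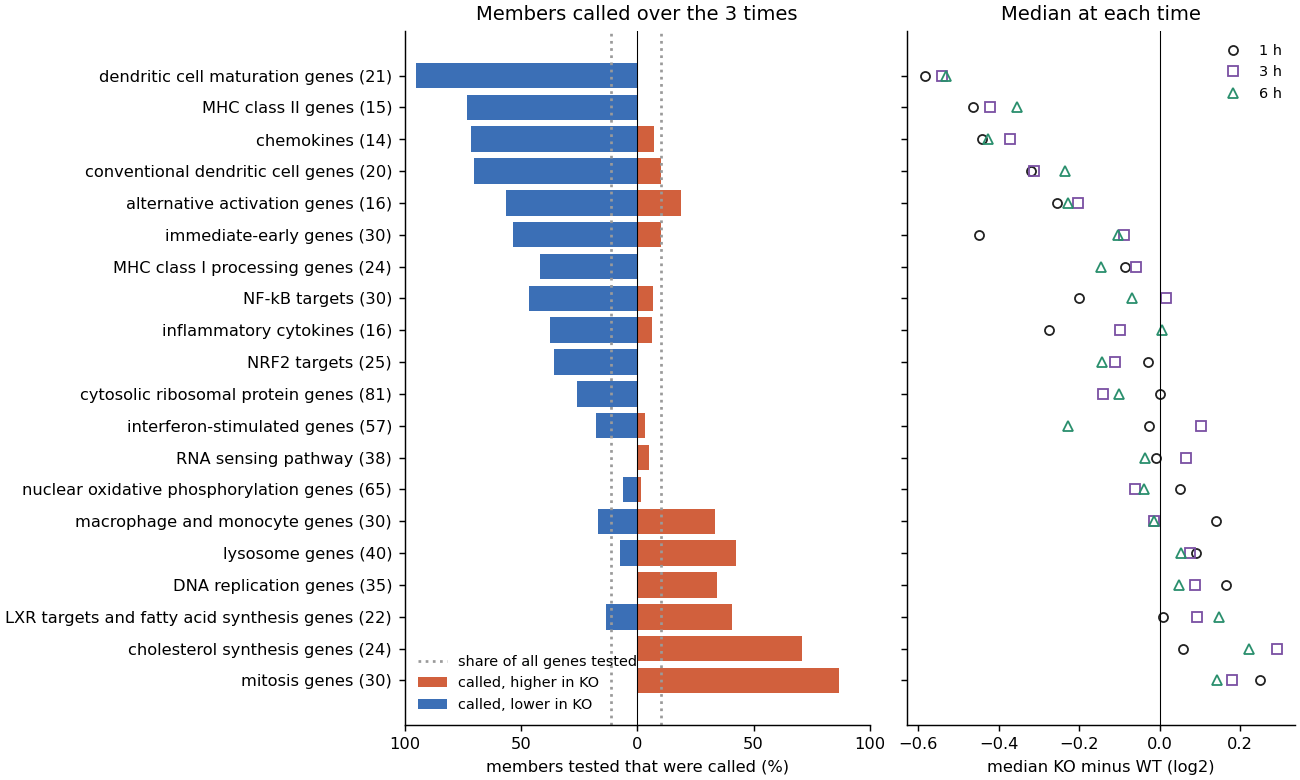
Left, for 20 gene lists, the share of members tested (number in brackets) that were called higher (orange, to the right) or lower (blue, to the left) in KO cells over the 3 times, with dotted lines at the shares of all genes tested (10.2% and 11.1%). Right, the median KO minus WT difference of each list at 1, 3 and 6 h; maturation and MHC class II genes stay below 0 at each time, and mitosis genes above.

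Cell division genes were higher in KO cells by a small amount. Of 30 mitosis genes 26 rose and 0 fell (10.2% of all genes rose), with a median of 0.19. Their summed counts were 14096 to 16359 in WT and 16024 to 18422 in KO libraries. Aurkb, a mitotic kinase, held 270 to 369 in WT and 329 to 458 in KO libraries, at 0.29 (SE 0.04, adjusted p = 6.26e-07). Ccna2, cyclin A, was at 0.31, Hmmr, a spindle protein, at 0.30 and Mki67, the proliferation antigen Ki-67, at 0.22 (3393 to 4271 in WT and 4235 to 4703 in KO libraries). The number of the 30 called higher was 19 at 1 h, 8 at 3 h and 4 at 6 h (4.58%, 4.04% and 5.38% of all genes), with medians of 0.25, 0.18 and 0.14, and no member passed the genotype by time test. Of 35 DNA replication genes 12 rose and 0 fell, with a median of 0.09, led by the clamp loader Rfc1 (0.24) and the helicase subunit Mcm7 (0.22).

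Promoter sequence was read for the mitosis genes, and other motifs were searched in other lists, whether or not their members moved together. The cell cycle homology region (CHR), an element that binds the DREAM and MuvB complexes, was searched as TTTGAA on both strands of RefSeq windows (GRCm38.p6) from 250 bases before to 50 after each start site. Of the 30 mitosis genes 27 had a window and 21 of these (77.8%) held a match, against 20.2% of 27025 genes. The letters are short, so a match is a description and not a site. The windows of Hmmr, Mki67 and Ccnb2, the cyclin B2 gene (0.24), are shown from 180 bases before to 20 after the start as examples with each match in capitals.
Hmmr (chr11:40733418-40733617, minus strand): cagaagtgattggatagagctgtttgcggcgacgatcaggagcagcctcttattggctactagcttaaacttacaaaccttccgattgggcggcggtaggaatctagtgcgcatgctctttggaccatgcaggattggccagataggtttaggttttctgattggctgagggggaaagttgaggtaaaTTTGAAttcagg
Mki67 (chr7:135716360-135716559, minus strand): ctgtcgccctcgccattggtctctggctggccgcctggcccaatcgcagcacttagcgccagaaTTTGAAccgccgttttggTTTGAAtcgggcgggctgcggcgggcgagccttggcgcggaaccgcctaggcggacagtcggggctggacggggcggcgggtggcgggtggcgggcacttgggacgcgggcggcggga
Ccnb2 (chr9:70421535-70421734, minus strand): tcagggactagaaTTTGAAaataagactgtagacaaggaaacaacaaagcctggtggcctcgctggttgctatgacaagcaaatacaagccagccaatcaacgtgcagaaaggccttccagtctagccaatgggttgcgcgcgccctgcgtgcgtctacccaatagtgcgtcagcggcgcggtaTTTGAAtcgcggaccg
In these windows Hmmr held 1 match, at 9 bases after the start, and Mki67 and Ccnb2 held 2 each.

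Cholesterol synthesis genes were higher in KO cells, mainly at 3 and 6 h. Of 24 tested 17 rose and 0 fell, with a median of 0.19. By time, 2 were called higher at 1 h, 17 at 3 h and 11 at 6 h (4.58%, 4.04% and 5.38% of all genes), and 1, Idi1, was lower at 6 h, with medians of 0.06, 0.29 and 0.22, and 10 passed the genotype by time test (1.59% of all genes did). Hmgcs1, an early enzyme of the pathway, held 3157, 2912 and 3145 in WT and 3211, 3202 and 3200 in KO libraries at 1 h. At 3 h it held 1411, 1396 and 1358 in WT and 1935, 1958 and 1908 in KO libraries, and at 6 h 1293, 1190 and 1256 against 1285, 1287 and 1322. The difference was 0.48 at 3 h (adjusted p = 6.14e-09, limma), and 0.06 and 0.06 at 1 and 6 h (adjusted p = 0.446 and 0.469). The genotypes did not overlap at 3 h or, by a small margin, at 1 h, and they overlapped at 6 h. Insig1, a brake on sterol sensing (0.30), the cyclase Lss (0.36) and the sterol carrier Stard4 (0.24) also rose over the 3 times. The Hmgcs1 promoter, the only 1 of 17 windows of this list (5.88%) with the sterol regulatory element letters TCACNCCAC against 1.44% of all genes, is shown over the same span with the match in capitals.
Hmgcs1 (chr13:119690171-119690370, plus strand): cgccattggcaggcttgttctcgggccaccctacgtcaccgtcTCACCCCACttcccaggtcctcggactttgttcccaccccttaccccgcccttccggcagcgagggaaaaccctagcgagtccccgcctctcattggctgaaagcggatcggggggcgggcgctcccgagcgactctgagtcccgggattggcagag
Of 22 LXR target and fatty acid genes 9 rose and 3 fell. Lpl, lipoprotein lipase, rose by 0.23 and Srebf1, the regulator of fatty acid synthesis, by 0.26, while the cholesterol exporter Abca1 fell by 0.28. Of 40 lysosome genes 17 rose and 3 fell, with the protease Ctsd at 0.22 (32290 to 38305 in WT and 38066 to 44212 in KO libraries).

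Interferon-stimulated genes were called about as often as all genes in unstimulated cells, and more of the calls were lower. Of 57 tested 2 were higher and 10 lower (21.1% called and 17.5% lower, against 21.3% and 11.1% of all genes), with a median of -0.03. Apart at every time were 2 higher and 2 lower, near the 6.46% of all genes that were apart in 1 direction. At 3 h 5 were higher and 1 lower (4.04% and 4.68% of all genes), with a median of 0.10. At 6 h 1 was higher and 8 lower (5.38% and 5.76% of all genes), with a median of -0.23. The list's median over the 3 times turned positive without the 6 h libraries or without WT mock 6 h replicate 1 alone. Its summed counts overlapped, at 23580 to 47394 in WT (median 26096) and 23116 to 38221 in KO libraries (median 28476). Of the 57 only Cxcl10 passed the genotype by time test. Mx1, an antiviral GTPase, held 1394 to 2748 in WT and 1048 to 1468 in KO libraries, at -0.44 (SE 0.06, adjusted p = 8.37e-07). Samd9l, a translation inhibitor, was higher at 0.37 (adjusted p = 9.91e-08) and Ly6e at 0.16. Of 38 genes of RNA sensing 2 were higher and 0 lower (5.26% called, against 21.3% of all genes). The 2 were the endosomal receptors Tlr8 (0.16) and Tlr7 (0.14). Ddx58, which encodes RIG-I, was at 0.18 (adjusted p = 0.068), Ifih1, MDA5, at -0.00 and Mavs at 0.09, and none of these passed the test. With every library kept, Ddx58 passed it when fitted from 6 mock group means (adjusted p = 0.0296) or 12 group means of all libraries (adjusted p = 0.00829). It also passed without the 6 h libraries (0.29, adjusted p = 0.00377), WT mock 6 h replicate 1 (0.25, adjusted p = 0.000759) or KO mock 6 h replicate 1 (0.22, adjusted p = 0.0348). Pcbp2, a regulator of MAVS, was at -0.08 (adjusted p = 0.0515) and was called lower under 8 alternatives, including edgeR (adjusted p = 0.0327), DESeq2 (adjusted p = 0.024) and leaving out WT mock 1 h replicate 2 (0.0171), KO mock 1 h replicate 3 (0.0416) or WT mock 6 h replicate 3 (0.0319). The Tlr7 call was lost without the 1 h libraries (adjusted p = 0.191). Among Toll-like and C-type lectin receptors 6 rose and 6 fell of 27, with Tlr2 at 0.40 and Tlr12 at -0.70.

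At single times 1413 genes (12.0%) were called at 1 h, 1025 (8.72%) at 3 h and 1309 (11.1%) at 6 h. Of these, KO cells were higher for 538, 475 and 632 genes and lower for 875, 550 and 677 genes in the order of the times. At every time 410 genes were called, 403 of them in 1 direction. The genotype by time test called 187 genes (1.59%), a count that ran from 82 (without KO mock 1 h replicate 1) to 561 (without WT mock 1 h replicate 1) when 1 library was left out. The counts at 3 and 6 h fell to as few as 667 (without WT mock 3 h replicate 3) and 826 (without KO mock 6 h replicate 2). Thbs1, an adhesive glycoprotein, had its genotypes overlapping at 1 h, at 11113, 10735 and 13420 in WT and 12915, 12015 and 12844 in KO libraries. At 3 h it held 2658, 2383 and 2498 in WT and 1790, 1861 and 1713 in KO libraries, and at 6 h 3504, 3544 and 3486 against 2046, 2188 and 2124. The differences were 0.11, -0.49 and -0.73 (adjusted p = 1.75e-06 for genotype by time in limma). Klf2, a transcription factor of quiescent leukocytes, held 164, 201 and 202 in WT and 156, 165 and 205 in KO libraries at 1 h, with no separation. At 3 h its KO libraries held 351, 367 and 322 against 207, 158 and 182, a difference of 0.93. At 6 h they held 501, 521 and 514 against 278, 282 and 323, a difference of 0.80.

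Immediate-early genes, which respond within minutes to signals, were lower at 1 h and split later. Of 30 tested 17 were lower and 0 higher at 1 h (7.44% and 4.58% of all genes), with a median of -0.45. At 3 h 7 were lower and 3 higher (4.68% and 4.04% of all genes). At 6 h 5 were lower and 8 higher (5.76% and 5.38% of all genes). Of the 30 genes 9 passed the genotype by time test (1.59% of all genes did). Junb, an AP-1 subunit, turned from -0.45 at 1 h to 0.44 at 6 h (adjusted p = 0.000337 and 0.000488). Its KO libraries held 2360, 2686 and 2584 at 1 h, all below the WT libraries at 3338, 3675 and 3420. At 6 h they held 5084, 5123 and 5230, all above the WT libraries at 2925, 4332 and 4274 (genotypes did not overlap for 26.0%, 25.8% and 29.8% of all genes at 1, 3 and 6 h). Nr4a3, an orphan nuclear receptor, stayed lower, at -1.06, -0.60 and -0.52, with 893, 950 and 1121 in WT and 470, 457 and 486 in KO libraries at 1 h. The phosphatase gene Dusp1 (-0.54) was lower as well. Of 30 NF-kB target genes 12 were lower and 0 higher at 1 h (7.44% and 4.58% of all genes). At 3 h 4 were lower and 4 higher (4.68% and 4.04% of all genes). Relb, Birc3 and Icam1 of this list are also in the maturation list. Traf1 (-0.59) and Rel (-0.39) fell and Tnfrsf1b rose (0.21) over the 3 times.

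**Figure D4:**
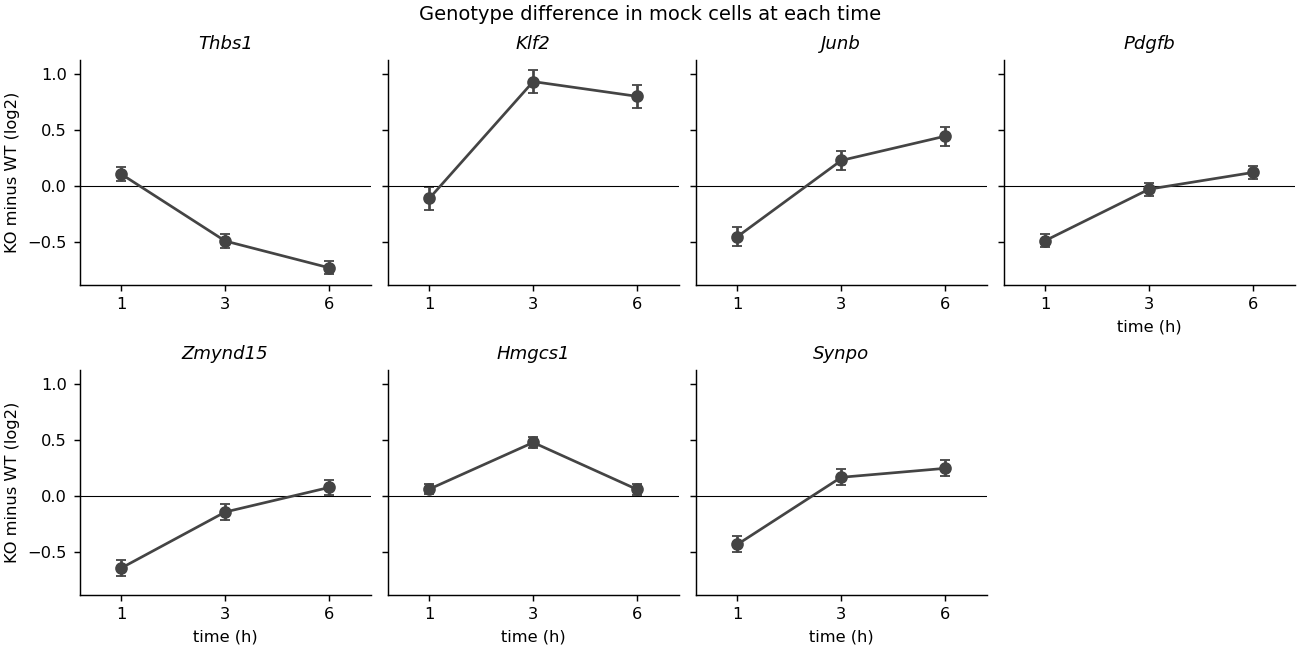
KO minus WT difference (y axis, log2) at 1, 3 and 6 h (x axis) for 7 genes among those with the smallest p in the genotype by time test and a mean of at least 50 normalized counts; bars are the standard error from limma. Thbs1 falls with time, Zmynd15 starts below 0 and ends near it, Junb and Synpo go from below 0 to above, and Hmgcs1 is high at 3 h alone.

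Genes named for the largest changes at a single time included Fabp4 (0.82 at 1 h), the secreted ribonuclease Rnase2a (0.76 at 1 h), the cytochrome Cyp1b1 (-1.26 at 1 h) and N-cadherin, Cdh2 (-1.22 at 1 h). At 3 h they included the synaptic scaffold Bsn (0.71) and the AP-1 subunit Fosb (-1.02), and the Fosb call was lost without WT mock 3 h replicate 3 (-0.88, adjusted p = 0.0774) or with no minimum on low values (adjusted p = 0.0527). At 6 h they included Rarg, a retinoic acid receptor (0.75), the inhibitory ligand Cd200 (-0.98) and the NK receptor gene Klrk1 (-0.95).

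Stress and housekeeping groups had shares of called genes on both sides of the 21.3% of all genes. Of 25 NRF2 targets 9 (36.0%) fell and 0 rose, among them Srxn1 (-0.26), Sqstm1 (-0.21) and Hmox1 (-0.27). Of 81 cytosolic ribosomal protein genes 21 (25.9%) fell and 0 rose, with a median of -0.08. Calls were 1 higher and 4 lower of 65 oxidative phosphorylation genes (7.69% called) and 3 and 4 of 46 hypoxia and glycolysis genes (15.2%, Pfkfb3 at -0.47). They were 3 and 5 of 27 genes of the integrated stress response (29.6%), 1 and 5 of 21 heat shock genes (28.6%), 3 and 4 of 24 p53 targets (29.2%), and 2 and 6 of 19 complement and Fc receptor genes (42.1%).

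The same contrast was read in libraries that the mock comparison did not use, the 3 KO and 3 WT libraries with PAMP RNA at 1 h. There 1032 genes (8.78%) were called, 417 (3.55%) higher and 615 (5.23%) lower in KO cells. Of the 1200 genes higher in mock cells 281 were called higher, which is 23.4% of these and 67.4% of the 417. Of the 1299 lower in mock cells 525 were called lower, which is 40.4% of these and 85.4% of the 615, and 1 and 5 genes were called the opposite way. The sign was the same for 89.2% and 93.0% of the genes, whether called or not. The labels do not say whether these libraries came from other marrow cultures than the mock libraries. Ppp1r15a, a feedback phosphatase subunit of the stress response, was called in opposite directions. At 1 h it held 567, 469 and 455 in WT and 344, 337 and 350 in KO mock libraries (-0.52), and 1570, 1638 and 1706 in WT and 2019, 2022 and 2205 in KO libraries with PAMP RNA (0.35, adjusted p = 0.000619). Cholesterol synthesis genes had 1 of 24 called higher there and 0 lower (3.55% and 5.23% of all genes), against 2 and 0 in mock cells at 1 h.

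**Figure D5:**
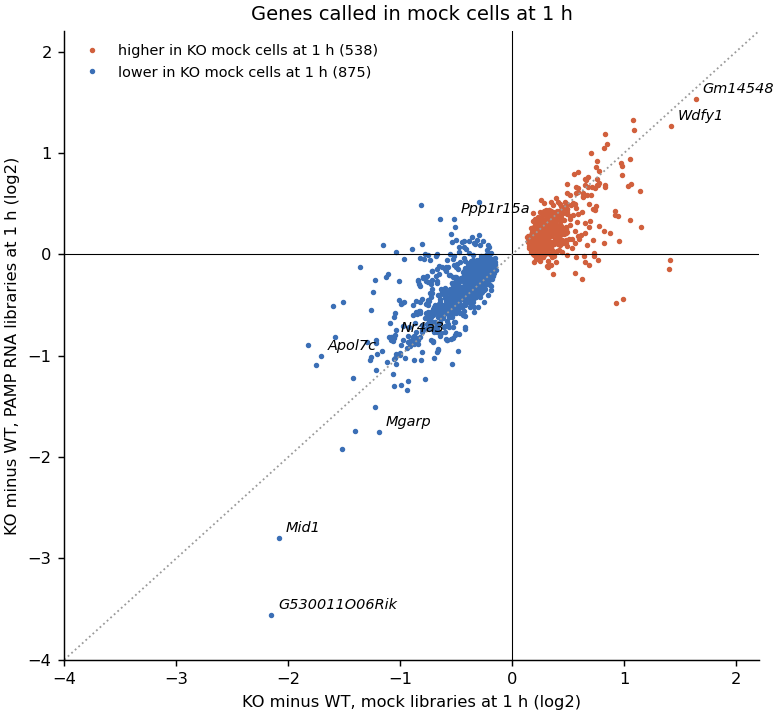
KO minus WT difference in mock libraries at 1 h (x axis, log2) and in PAMP RNA libraries at 1 h (y axis, log2) for genes called in mock cells at 1 h (538 higher, 875 lower); the dotted line marks equal differences. Most points lie on the same side of 0 in both; Erdr1, at -8.12 and -8.55, is outside the plotted range.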

How the data were processed

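RNA sequencing libraries from KO and WT dendritic cells came from SMARTer cDNA and Nextera XT, which do not mark strand, and were read as 100-base single reads, per the labels' protocols. The submitters' processing notes name TopHat, Cufflinks, DESeq2 and the build GRCm38 (mm10). For versions, annotation and filters, nothing is given in the sources used here. By its title, the deposited file holds normalized DESeq counts, and its values are a signal for each gene that the authors scaled from read counts. In every library 100% of values were whole multiples of 1 step within 0.01 read. Whole reads recovered in this way give the depths and were used for edgeR, which called 2510 genes over the 3 times, and DESeq2.

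The comparisons used log2(normalized count + 1), which understates changes of low genes, and limma with a mean-variance trend (limma 3.58.1, R 4.3.3). The fit over the 3 times had time as a block and 14 residual degrees of freedom. Single times and genotype by time (a moderated F test) came from 6 group means with 12 residual degrees of freedom. PAMP RNA libraries at 1 h were fitted with the other PAMP RNA libraries in the same way. Tests are two-sided. Alternatives were other pseudocounts (0.5 and 5), no minimum or a minimum of 50, quantile normalization, equal total reads, edgeR 4.0.16 and DESeq2 1.42.0 on recovered reads, a replicate block, other group designs, and leaving out each library or time. The scripts were tested on simulated data.

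Genes named are Dhx58 and its neighbour, the 12 largest rises and 12 largest falls with a mean of at least 50 and no overlap at any time, up to 4 members of a list by smallest p, 8 genes by the genotype by time test, up to 4 a direction at each time, called genes within 5 Mb of Dhx58 and cell markers. Other list members are given to describe their list and were chosen after their values were seen. Some lists share members, so their counts are not independent of each other. Some genes the rule names are not reported here. The comparison, lists and rules were chosen with earlier results of these data known. Gene positions are from GENCODE M21 or, for Erdr1, RefSeq. Counting intervals are exact binomial and cover counting error only, since reads carry no molecular identifiers.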

Additional observations from a re-analysis of the deposited data

Results flagged for a closer look

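In mock cells the KO minus WT difference varied between the 3 times, by limma's moderated F test with Benjamini-Hochberg adjustment, for 187 of 11755 genes (1.59%). Among the genes described, this held for Thbs1 (adjusted p = 1.746e-06), Klf2 and Junb (each adjusted p = 0.0001849), Pdgfb (0.0002003), Zmynd15 (0.0002164), and Hmgcs1 and Synpo (each 0.0002423). It also held for Dhx58 (adjusted p = 0.01129), its neighbour Kat2a (0.01634) and Wdfy1 (0.01928). The differences at 1, 3 and 6 h were -0.49, -0.03 and 0.12 for Pdgfb, a growth factor subunit, -0.64, -0.14 and 0.08 for Zmynd15, and -0.43, 0.17 and 0.25 for Synpo, an actin-associated protein. Of the 187 genes, 155 had a KO minus WT difference that was higher at 6 h than at 1 h and 32 a lower one (82.9% higher). With 1 library left out the count ran from 82 to 561, and without WT mock 1 h replicate 1 it split into 356 higher and 205 lower (63.5% higher). Each time is 1 set of 3 libraries a genotype, so time and any handling shared by those libraries cannot be told apart.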

How the results depend on the processing

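Over the 3 times, 2499 genes were called. Settings that leave out no time or library gave 2222 to 2735, edgeR 2510 and DESeq2 2359, and the count fell to 1559 without the 3 h libraries and 1665 without the 6 h libraries, fits with fewer samples. With 1 library left out the counts ranged from 2236 to 2788 over the 3 times, 1035 to 1545 at 1 h, 667 to 956 at 3 h, 826 to 1138 at 6 h, 740 to 863 with PAMP RNA and 82 to 561 for genotype by time. The count at 3 h moved by over 1.5 times without WT replicate 2 (674), WT replicate 3 (667) or KO replicate 2 (681), and that at 6 h without KO replicate 2 (826). Genotype by time (187) gave 83 genes with no minimum on low values. It gave 561, 104 and 115 without WT mock 1 h replicates 1, 2 and 3, 82, 84 and 93 without KO mock 1 h replicates 1, 2 and 3, 122 and 120 without WT mock 3 h replicates 2 and 3, and 108 and 115 without KO mock 6 h replicates 2 and 3; the cause was not tested. Residuals of 9 same-numbered KO and WT pairs correlated at a median of 0.01 (from -0.09 to 0.03). These values show no large shift shared by replicate number. They cannot tell whether the numbers mark shared cultures, because counting noise lowers such correlations. With the replicate block the counts were 2242 over the 3 times, 1344, 970 and 1241 at 1, 3 and 6 h, 165 for genotype by time and 1152 with PAMP RNA. No named gene that was called changed direction in any setting. Of 6833 values of named genes under alternatives 106 lost a call, 41 gained one and 25 moved by more than the spread. Of list medians, 44 of 1088 moved by more than the spread. The median of the interferon-stimulated genes turned positive without the 6 h libraries or WT mock 6 h replicate 1, and that of the macrophage and monocyte genes turned negative without the 1 h libraries. Depth limits low genes: those averaging under 10 normalized counts, Flt3 among them, were not tested.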
